A study of Mus musculus with 10 samples.

Results

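The libraries compared here were made from mouse ureteric bud (UB) organoids at day 5 and at day 10 of culture. They are 4 of the 10 libraries of the series, 2 for each day. The genes described are the 20917 of the 39273 in the deposited table that had at least 10 counts over these 4 libraries. All 4 libraries carried the same labels apart from the day: kidney UB from embryonic day 11.5 (embryonic day 11 in the age label), strain background C57BL/6 x Swiss Webster, genotype Wnt11-RFP +/-, which is a red fluorescent reporter of the tip gene Wnt11 on 1 of 2 alleles. The organoids of both days started from whole T-shaped UBs embedded in Matrigel and grew in the same UB culture medium, UBCM. This medium held FGF9, GDNF, R-Spondin 1, the retinoid TTNPB, the GSK3 inhibitor CHIR99021, the BMP receptor inhibitor LDN-193189, the TGF-beta receptor inhibitor A83-01, JAK Inhibitor I and the p38 inhibitor SB202190. The study renewed the medium every 2 days and passaged the organoids every 5 days, so day 10 differed from day 5 by time in culture together with passage. No library of freshly dissected UB belongs to this comparison, and levels are given relative to day 5. UB organoids of day 20, with the same labels, are set beside the 2 days for some genes. That comparison shares the day 10 libraries, so its values are given side by side and not as a second line of evidence.

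The ureteric bud is the epithelial outgrowth that branches to make the collecting duct tree of the kidney. Progenitor cells in its tips carry the receptor Ret, respond to GDNF from the surrounding mesenchyme and signal back through Wnt11, while cells left behind in the trunk turn on Wnt9b, Shh and, later, collecting duct genes. In UBCM the mesenchyme is replaced by added factors in a medium of fixed composition. Genes that respond to Wnt, GDNF, FGF and retinoid signalling are described below for this reason. Ligand genes of the organoids themselves changed too, and the part of the medium in any change was not tested.

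The 4 libraries held between 22858971 and 24536676 counts. The scaling factors (TMM) were 1.007 and 0.9989 at day 5 and 1.104 and 1.118 at day 10. Levels are given as CPM, counts relative to the scaled library size, in which 3 counts correspond to 0.109 to 0.128 CPM. Neither the labels nor the methods say whether the 2 libraries of a day came from separate embryos or cultures. The p-values therefore measure only the spread between libraries of the same group, which may be technical. That spread was estimated from all 10 libraries of the series together. The libraries of a day agreed closely: of 9743 genes at a mean of at least 10 CPM at day 5, 28 differed by more than 2-fold between the 2 libraries, and of 9913 such genes at day 10, 110 did. In bulk libraries fewer cells of a type and less RNA per cell cannot be told apart. The UB lineage genes were present in every library, and their 14 members had a summed level of 3278 to 3662 CPM over the 4 libraries. For markers of other cell types, the summed level over the same libraries was 7.39 to 15.2 CPM for 7 nephron progenitor genes, 49.97 to 145 CPM for 9 stromal genes, 13.8 to 19.3 CPM for 8 endothelial genes, 2.56 to 8.13 CPM for 8 leukocyte genes and 10.8 to 20.01 CPM for 6 neural genes. The 5 podocyte genes summed to 17.8 and 19.8 CPM at day 5 and 41.7 and 43.9 at day 10, with 3 that rose and 0 that fell. The 5 proximal tubule genes summed to 21.8 and 23.2 CPM at day 5 and 9.67 and 16.95 at day 10, with 0 that rose and 1 that fell. The erythroid list reached at most 1.46 CPM in a library and the muscle list 0.898 CPM. In the stromal list Twist1, a transcription factor of mesenchyme, was at 40.5 and 34.4 CPM at day 5 and 120.2 and 122 at day 10. The defining stromal gene Foxd1 was at 0.171 and 0.0408 CPM at day 5 and 0.119 and 0.0729 at day 10. The collagen gene Col1a1 was at 3.12 and 11.8 CPM at day 5 and 7.06 and 6.85 at day 10. The part of these other markers in the results below was not tested.

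In all, 3854 genes passed the test higher at day 10 and 4115 passed it lower (adjusted p at most 0.05, quasi-likelihood test of edgeR, adjusted by Benjamini and Hochberg's method, any size of change). These are 15.8% and 16.9% of the 24410 genes tested over the series. Among the 13765 genes at a mean of at least 1 CPM over the 4 libraries, 22.6% passed higher and 27.5% passed lower. These shares are the background for the lists below whose members are mostly expressed. They do not apply to lists with few members at that level. Such lists are the intercalated cell genes (3 of 15 tested), chemokines (9 of 34), urothelial and squamous genes (5 of 17), keratins (8 of 22) and Hox genes (14 of 33). Under a stricter call (adjusted p at most 0.01 and more than 4-fold), 571 genes were higher, 2.34% of those tested, and 261 were lower, 1.07%. Of the 20917 genes described here, 18.1% passed higher and 19.6% lower, and 2.73% and 1.25% were called. At a mean of at least 1 CPM 2.61% were called higher and 1.32% lower. So the genes that passed were split about evenly, while those past 4-fold were more often higher. Of the genes that passed, 48.4% were higher at day 10, and 65.3% were when library totals alone were used for scaling, which moved the median of all genes up by 0.14 on the log2 scale. In the day 10 libraries, replicate 2 lay further from day 5 than replicate 1: its level was above that of replicate 1 in 428 of the 571 genes called higher and below it in 189 of the 261 called lower. Among the genes at a mean of at least 1 CPM, both libraries of one day lay above both of the other in 75.2%. That share is the background wherever the days are said below not to overlap.

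**Figure D1:**
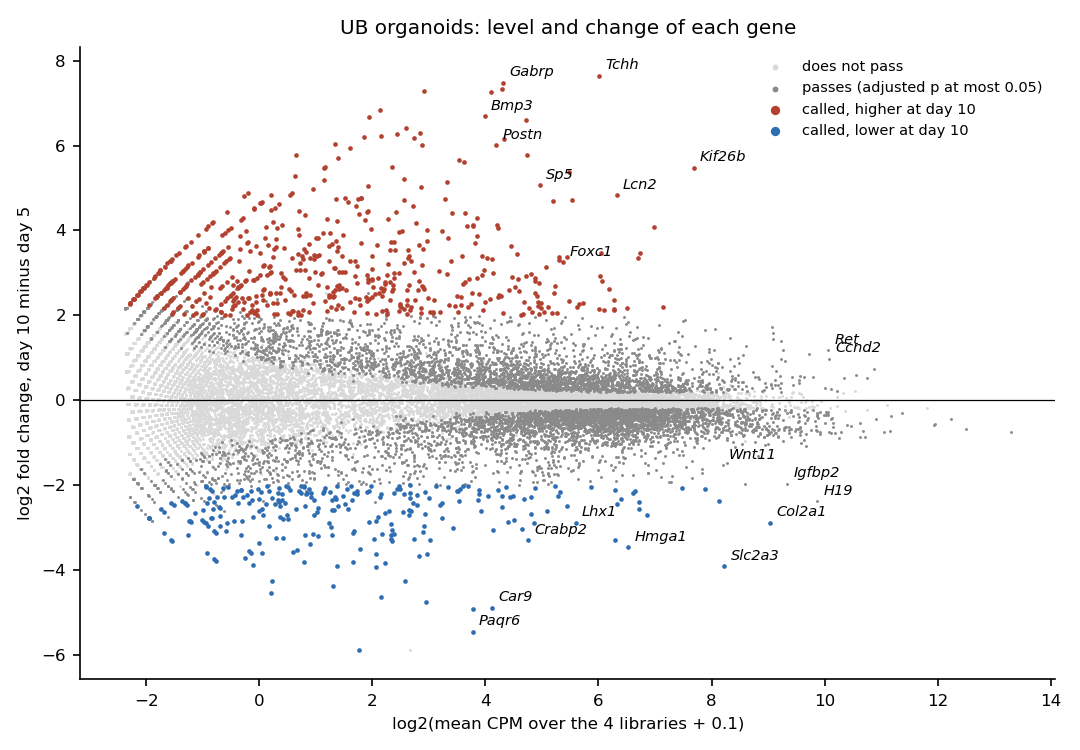
Each point is a gene with at least 10 counts over the 4 libraries; the x axis is the log2 of its mean CPM plus 0.1 and the y axis its log2 fold change, day 10 minus day 5. Red and blue points are the genes called higher and lower; Kif26b and Lcn2 stand out among increases at high level, and Slc2a3, Col2a1 and H19 among decreases.

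The 40 gene lists differed in how evenly they split. In 21 lists more members fell than rose. Every member tested of the mitosis list fell, as did 74 of 81 cytosolic ribosomal protein genes and 15 of 19 glycolysis genes, with no member of any of the 3 lists passing higher. Lists with more members that rose than fell included the beta-catenin targets (12 and 4 of 23), the Ret-ERK feedback genes (10 and 3 of 23) and the axon guidance genes (21 and 14 of 68). The lists were not tested as groups.

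**Figure D2:**
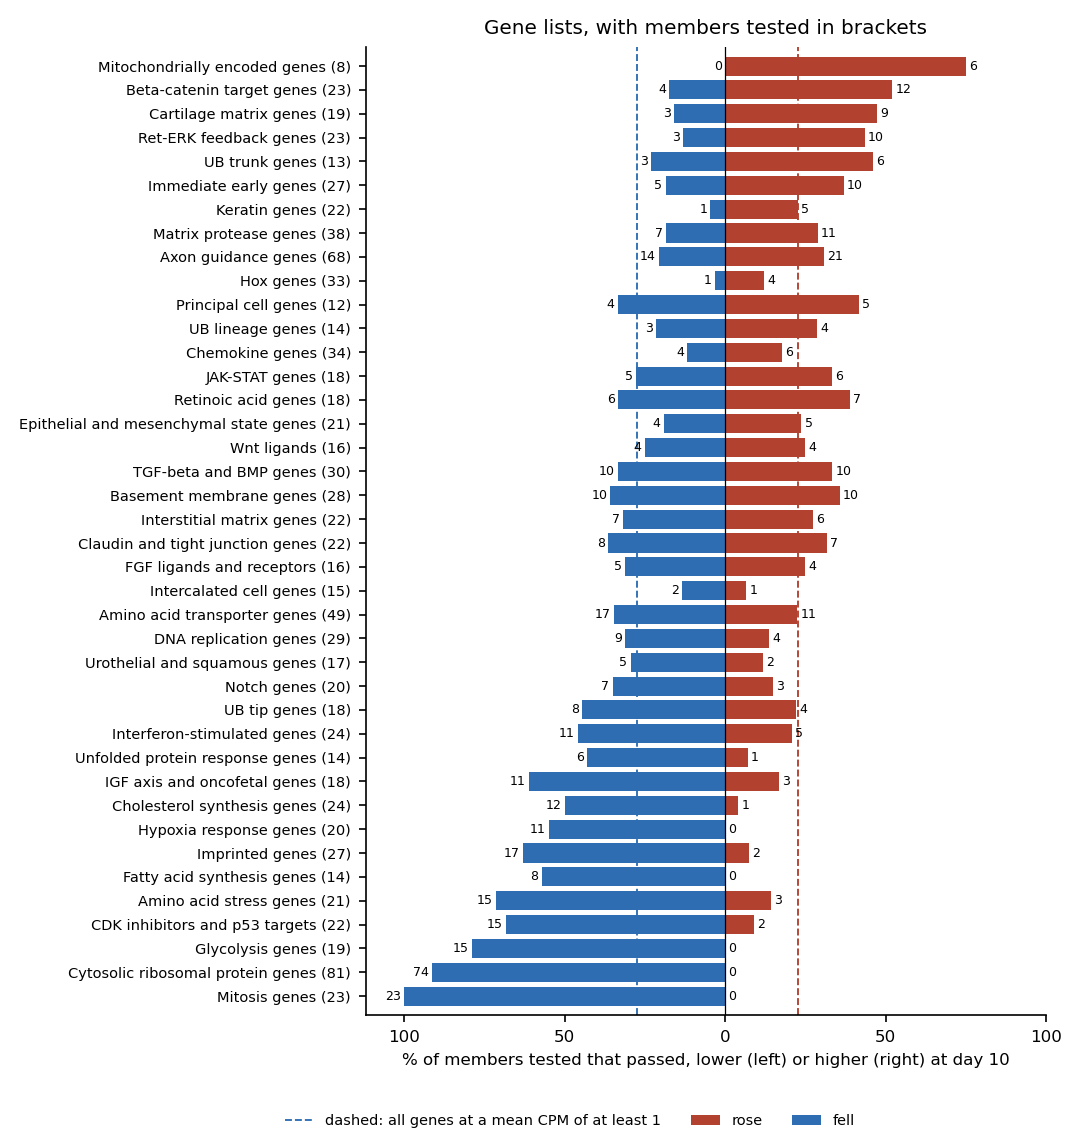
For each of the 40 lists, the share of members tested that passed the test lower (blue, to the left) or higher (red, to the right) at day 10, in percent, with the number of genes at the end of each bar. The dashed lines mark the shares over all genes at a mean of at least 1 CPM, 27.5% lower and 22.6% higher. They are no background for lists with few members at that level, such as the intercalated cell, chemokine, urothelial, keratin and Hox genes. The bar of the mitosis genes at the bottom is wholly to the left.

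More targets of Wnt and beta-catenin signalling rose than fell. Of 23 genes tested, 12 rose, 4 fell and 7 did not pass, with a median log2 fold change of 0.41, beside a median of 0.02 over all genes tested. Sp5, a transcription factor that is itself a direct Wnt target, was at 1.45 and 2.04 CPM at day 5 and 37.1 and 83.8 at day 10 (log2 fold change 5.07, SE 0.35, edgeR adjusted p = 3.6e-07). Axin2, the scaffold of the complex that degrades beta-catenin and the usual readout of the pathway, was at 57.5 and 63.9 CPM at day 5 and 200.2 and 213 at day 10 (log2 fold change 1.77, SE 0.11, edgeR adjusted p = 1.9e-07). Nkd1, an inhibitor that binds Dishevelled, was at 39.1 and 40.8 CPM at day 5 and 135 and 152 at day 10. In all 3 genes both libraries of day 10 lay above both of day 5. Lef1, a DNA-binding partner of beta-catenin, was at 6.15 and 8.28 CPM at day 5 and 42.9 and 59.4 at day 10 (log2 fold change 2.81, SE 0.20, edgeR adjusted p = 4.4e-07). Lgr6, a receptor for R-Spondins, was at 0.299 and 0.245 CPM at day 5 and 5.31 and 8.97 at day 10. The membrane inhibitor Apcdd1 was at 0.811 and 5.51 CPM at day 5 and 43.9 and 37.04 at day 10, with the 2 libraries of day 5 well apart. Its log2 fold change of 3.64 became 5.55 without day 5 replicate 2 and 2.86 without replicate 1, and that of Sp5 became 4.35 without day 10 replicate 2. Dkk3 and Tnfrsf19 rose as well (log2 fold changes 1.53 and 1.04), as did the ubiquitin ligase Rnf43, which removes Frizzled receptors, by less (0.41).

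The 4 members that fell all act against Wnt signalling outside the nucleus, but so do Axin2, Nkd1, Apcdd1 and Rnf43, which rose. Sfrp1 and Sfrp2 are secreted Wnt binders. Sfrp1 was at 12.5 and 14.9 CPM at day 5 and 5.91 and 5.25 at day 10. Sfrp2 was at 46.1 and 42.8 CPM at day 5 and 31.8 and 20.1 at day 10. Wif1, another secreted Wnt binder, had a log2 fold change of -1.16 and the Dickkopf receptor Kremen1 one of -0.40. Without day 5 replicate 2 Wif1 no longer passed (log2 fold change -0.52, edgeR adjusted p = 0.25). Tcf7 was at 114 and 115 CPM at day 5 and 89.2 and 119 at day 10 and did not pass the test. The Wnt ligands themselves split evenly, 4 up and 4 down of 16 tested. Wnt5a, a ligand of the noncanonical branch, was at 42.8 and 48.97 CPM at day 5 and 132 and 150.2 at day 10 (log2 fold change 1.62, SE 0.10, edgeR adjusted p = 2.1e-07). Wnt6 was at 56.4 and 62.3 CPM at day 5 and 40.5 and 30.6 at day 10. Wnt9a was at 7.17 and 11.1 CPM at day 5 and 2.42 and 2.22 at day 10.

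The sequence CTTTGAT, the core of the sites bound by the TCF and LEF partners of beta-catenin, was looked for on both strands in the promoter windows of RefSeq (GRCm38.p6, 250 bases before to 50 after each start). It lay in 2 of the 16 beta-catenin target genes with a window, Sp5 and Tnfrsf19, and in 4.29% of the 27025 genes with a window. Some genes have several windows, and per window the shares were 8.33% and 3.73%. The window of Sp5 is shown because this gene had the largest fold change of the list. The 250 bases before its start are printed 5′ to 3′ in lower case, with the match in capitals, which begins 104 bases before the start:
Sp5, chr2:70474673-70474922, + strand: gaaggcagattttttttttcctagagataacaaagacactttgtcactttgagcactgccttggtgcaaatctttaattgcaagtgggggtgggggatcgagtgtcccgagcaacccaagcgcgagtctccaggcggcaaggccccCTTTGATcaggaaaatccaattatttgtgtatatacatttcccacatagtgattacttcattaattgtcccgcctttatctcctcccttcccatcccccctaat

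The tip genes did not move as 1 group. Of 18 tested, 4 rose, 8 fell and 6 did not pass. Ret, the GDNF receptor that defines tip cells, was at 609.9 and 702 CPM at day 5 and 1358 and 1607 at day 10 (log2 fold change 1.18, SE 0.30, edgeR adjusted p = 0.0087), and its gain in CPM was the second largest of the genes that passed. Its co-receptor Gfra1 was at 514 and 546 CPM at day 5 and 394 and 518 at day 10. The ETS factors Etv4 and Etv5 act downstream of Ret. Etv4 was at 317 and 369.6 CPM at day 5 and 321 and 304 at day 10. Etv5 was at 264 and 304 CPM at day 5 and 287 and 355 at day 10. Gfra1, Etv4 and Etv5 did not pass. Sema3c, a secreted semaphorin, rose from 174 and 213 to 343 and 374 CPM, and Sox9 from 231 and 257 to 291 and 345 CPM. On the other side, Wnt11, the ligand whose reporter these mice carry, was at 376 and 496 CPM at day 5 and 192 and 109 at day 10 (log2 fold change -1.53, SE 0.21, edgeR adjusted p = 7.7e-05). Lhx1, a LIM homeobox factor of the early UB, was at 76.97 and 92.9 CPM at day 5 and 15.3 and 7.73 at day 10 (log2 fold change -2.88, SE 0.27, edgeR adjusted p = 3.7e-06). Mycn, a driver of progenitor proliferation, was at 65.7 and 62.1 CPM at day 5 and 18.2 and 8.64 at day 10 (log2 fold change -2.25, SE 0.24, edgeR adjusted p = 1.1e-05). Day 10 thus had more Ret and less Wnt11 than day 5, with no overlap between the days in either gene. Ret did not pass by DESeq2 (adjusted p = 0.23). Without day 5 replicate 1 the log2 fold change was 1.08 for Ret and 0.31 for Sox9, and neither gene passed. The log2 fold change of Mycn was -2.89 without day 10 replicate 1. At day 20 the mean was 2087 CPM for Ret, 20.95 CPM for Wnt11 and 1.17 CPM for Lhx1. The homeobox factor Emx2, the chemokine receptor Cxcr4, Spry1, Sox8 and the kinase gene Ros1 were the other members that fell, with log2 fold changes of -1.14, -0.91, -0.81, -0.69 and -2.47.

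Trunk genes split too. Shh, the hedgehog ligand of the trunk and ureter, was at 0.854 and 1.22 CPM at day 5 and 12.4 and 9.77 at day 10 (log2 fold change 3.35, SE 0.26, edgeR adjusted p = 8.1e-07). Wnt9b, which induces nephrons from the trunk, was at 7.64 and 13.7 CPM at day 5 and 43.96 and 60.1 at day 10 (log2 fold change 2.28, SE 0.24, edgeR adjusted p = 9.4e-06). The chaperone gene Clu was at 17.1 and 17.5 CPM at day 5 and 88.1 and 77.8 at day 10 (log2 fold change 2.26, SE 0.10, edgeR adjusted p = 1.3e-08). The collecting duct factor Tfcp2l1 was at 71.04 and 108 CPM at day 5 and 259 and 213 at day 10. The ETS factor Elf5 was at 4.82 and 5.75 CPM at day 5 and 20.1 and 19.3 at day 10. Each of these 5 genes was higher in both day 10 libraries than in both day 5 libraries. Cdkn1c, Krt19 and Elf3 fell (log2 fold changes -1.52, -1.13 and -0.72), but Krt19 and Elf3 did not pass without day 5 replicate 2 (edgeR adjusted p = 0.068 and 0.077), and Krt19 stood at -1.91 without day 10 replicate 1. At day 20 the means of Shh, Wnt9b and Tfcp2l1 were 0.548, 35.2 and 93.8 CPM, all below the day 10 means of 11.1, 52.04 and 236 CPM. A wider view came from the genes that the study found to differ between primary UB tip and trunk, a list chosen on libraries not analysed here. Of 838 trunk genes tested, 275 rose (32.8%) and 104 fell (12.4%), with a median log2 fold change of 0.43. Of 550 tip genes, 160 rose (29.1%) and 176 fell (32.0%), with a median of -0.07. Over all genes tested the shares were 15.8% and 16.9%, so both lists rose more often than that. Many of the trunk genes that rose had low counts. With a filter at a mean of 1 CPM, 193 trunk genes rose and 86 fell. With the same filter 157 tip genes rose and 168 fell. Of the broad UB lineage genes, 7 of 14 did not pass. Gata3 was at 316 and 328 CPM at day 5 and 331 and 319 at day 10. Cdh1 was at 643 and 663 CPM at day 5 and 698 and 786 at day 10. Neither of these passed. Those that rose included Krt8 (0.79) and Foxc1, a forkhead factor, which was at 6.62 and 8.94 CPM at day 5 and 64.6 and 85.6 at day 10 (log2 fold change 3.26, SE 0.15, edgeR adjusted p = 1.9e-08). Foxc1 is on the list used here but is not among the broad UB lineage markers that the study names. Pax2 and Calb1 fell (log2 fold changes -0.45 and -0.88), and Sall4, a factor of early progenitors, was at 20.02 and 18.1 CPM at day 5 and 2.58 and 2.08 at day 10 (log2 fold change -3.01, SE 0.22, edgeR adjusted p = 1.2e-06).

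Among genes that report on Ret and ERK signalling, 10 of 23 tested rose and 3 fell. The phosphatase Dusp6, which turns ERK off, was at 255 and 303 CPM at day 5 and 353 and 453 at day 10 (log2 fold change 0.53, SE 0.11, edgeR adjusted p = 0.0022). Spry2 and Spry4, intracellular inhibitors of receptor tyrosine kinases, rose by 0.71 and 0.46 on the log2 scale, and so did the ETS factor Etv1 (1.58), Phlda1 (1.80), Spred1 (0.46) and Spred2 (0.43). Spry4 did not pass without day 5 replicate 1 or without day 10 replicate 2 (edgeR adjusted p = 0.3 and 0.13). By contrast, Spry1 was at 173 and 193 CPM at day 5 and 104 and 104 at day 10 (log2 fold change -0.81, SE 0.09, edgeR adjusted p = 1.1e-05), and Il17rd and Dusp5 also fell (-0.78 and -1.04). The feedback inhibitors therefore did not move in 1 direction. Of the FGF receptors, Fgfr2 was at 500.4 and 605 CPM at day 5 and 894 and 732 at day 10 (log2 fold change 0.56, SE 0.10, edgeR adjusted p = 0.001). Fgfr1 was at 188 and 199.8 CPM at day 5 and 172 and 191 at day 10 and did not pass. Fgf1, a ligand for all FGF receptors, went from 0.171 and 0.367 to 6.10 and 7.88 CPM (log2 fold change 4.44, SE 0.26, edgeR adjusted p = 1.1e-07).

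**Figure D3:**
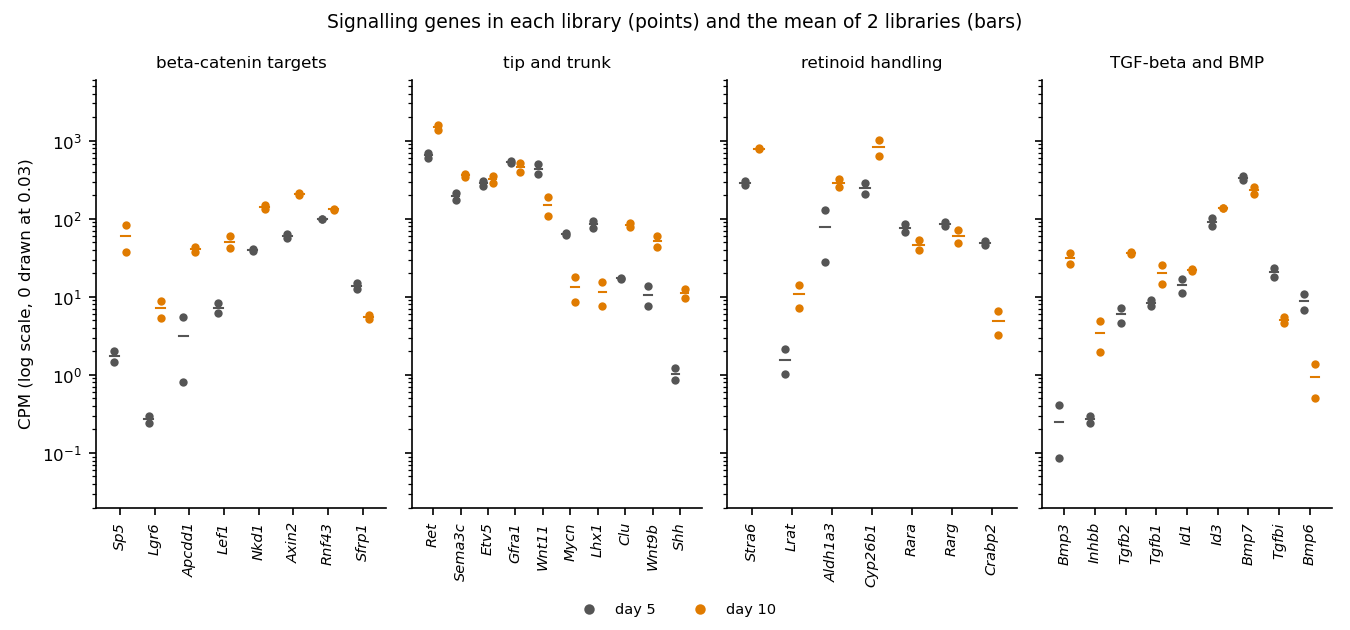
CPM on a log scale for signalling genes in each library: 2 grey points for day 5 and 2 orange points for day 10, with a short bar at the mean of each day. Sp5 and Bmp3 rise from near or below 2 CPM, Ret rises while Wnt11 falls, and Crabp2 falls while Cyp26b1 rises.

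Retinoid genes changed in both directions, 7 up and 6 down of 18. Several that take up, store or make retinoids rose. Stra6, the receptor that imports retinol, was at 272 and 308 CPM at day 5 and 783 and 802 at day 10 (log2 fold change 1.45, SE 0.12, edgeR adjusted p = 1.8e-06). The libraries of a day were close together in this gene. Lrat, which esterifies retinol for storage, was at 1.02 and 2.12 CPM at day 5 and 7.29 and 14.2 at day 10. The retinal dehydrogenase Aldh1a3 was at 128 and 27.9 CPM at day 5 and 326 and 255 at day 10 (log2 fold change 1.90, SE 0.48, edgeR adjusted p = 0.008). The 2 day 5 libraries of Aldh1a3 differed by more than 4-fold, and its log2 fold change became 1.18 without day 5 replicate 2 and 3.38 without replicate 1. It did not pass in a fit of the 4 libraries alone (edgeR adjusted p = 0.06) or by DESeq2 (adjusted p = 0.11). Cyp26b1, the enzyme that degrades retinoic acid and a known retinoid target, was at 209 and 290.3 CPM at day 5 and 1014 and 643 at day 10 (log2 fold change 1.73, SE 0.25, edgeR adjusted p = 0.00013). The receptors Rara, Rarg and Rxrb fell (-0.72, -0.52 and -0.39), and Rxra rose (0.45). Rarg and Rxrb did not pass without day 5 replicate 2 (edgeR adjusted p = 0.072 and 0.066), without which Lrat had a log2 fold change of 3.32. The largest fold decrease was in Crabp2, which carries retinoic acid to its nuclear receptor, at 46.4 and 51.3 CPM at day 5 and 6.66 and 3.21 at day 10 (log2 fold change -3.30, SE 0.25, edgeR adjusted p = 8.1e-07, and -3.92 without day 10 replicate 1). At day 20 Cyp26b1 had a mean of 89.1 CPM (log2 fold change day 20 over day 10 -3.22, edgeR adjusted p = 1.7e-06), and Aldh1a3 one of 1341 CPM.

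UBCM holds inhibitors of the BMP and TGF-beta receptors, and ligands of both families changed. Bmp3, an atypical BMP that opposes the others, was at 0.0854 and 0.408 CPM at day 5 and 26.7 and 35.95 at day 10 (log2 fold change 6.69, SE 0.26, edgeR adjusted p = 6.4e-09). Tgfb2 was at 4.65 and 7.26 CPM at day 5 and 37.9 and 34.9 at day 10 (log2 fold change 2.60, SE 0.16, edgeR adjusted p = 1.7e-07). Inhbb, an activin subunit, was at 0.299 and 0.245 CPM at day 5 and 1.98 and 4.89 at day 10. These 3 genes were higher in both day 10 libraries. Bmp7, the BMP gene with the most counts, was at 318 and 348 CPM at day 5 and 256 and 207 at day 10 (log2 fold change -0.52, SE 0.09, edgeR adjusted p = 0.00066). Bmp6 was at 6.87 and 10.9 CPM at day 5 and 1.39 and 0.510 at day 10 (log2 fold change -3.18, SE 0.35, edgeR adjusted p = 1.6e-05). Targets split as well. The BMP targets Id1 and Id3 rose by 0.64 and 0.59 on the log2 scale, while Smad6 and Smad7, the inhibitory Smads, had log2 fold changes of -0.81 and -0.78. The TGF-beta target Tgfbi was at 17.7 and 23.6 CPM at day 5 and 5.47 and 4.59 at day 10 (log2 fold change -2.03, SE 0.20, edgeR adjusted p = 5.6e-06). Id1 did not pass without day 5 replicate 1 (edgeR adjusted p = 0.06), nor Smad7 without day 5 replicate 2 (edgeR adjusted p = 0.33). The log2 fold change was 7.79 for Bmp3 without day 5 replicate 2 and 6.08 without replicate 1, -3.99 for Bmp6 without day 10 replicate 1 and 2.62 for Inhbb without day 10 replicate 2. In all 10 of 30 members rose and 10 fell.

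Pim1, a kinase gene that STAT factors turn on, was at 38.3 and 40.8 CPM at day 5 and 8.29 and 2.99 at day 10 (log2 fold change -2.82, SE 0.26, edgeR adjusted p = 4.1e-06). Socs3, their feedback inhibitor, was at 23.99 and 23.1 CPM at day 5 and 17.6 and 9.74 at day 10. The shared cytokine receptor Il6st was at 134 and 166 CPM at day 5 and 350.2 and 347 at day 10 (log2 fold change 1.22, SE 0.10, edgeR adjusted p = 1.1e-06). Il6ra was at 0.299 and 0.530 CPM at day 5 and 2.58 and 4.78 at day 10. In these 4 genes the days did not overlap, but Socs3 did not pass in a fit of the 4 libraries alone (edgeR adjusted p = 0.071). In all 6 of 18 JAK-STAT genes rose and 5 fell. Of 24 interferon-stimulated genes, 11 fell and 5 rose. Bst2, which tethers budding viruses, was at 37.6 and 36.3 CPM at day 5 and 6.78 and 3.35 at day 10 (log2 fold change -2.86, SE 0.22, edgeR adjusted p = 8.9e-07). Tap1, a peptide transporter for antigen presentation, was at 16.9 and 15.1 CPM at day 5 and 5.99 and 5.58 at day 10. Without day 10 replicate 1 the log2 fold change was -3.71 for Pim1 and -3.45 for Bst2.

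Glycolysis genes fell across the pathway. Of 19 tested, 15 passed lower and none higher, with a median log2 fold change of -0.59. The glucose transporter Slc2a3 was at 548 and 573 CPM at day 5 and 62.99 and 12.03 at day 10 (log2 fold change -3.91, SE 0.47, edgeR adjusted p = 3.5e-05). Slc2a1, the more abundant transporter in counts, was at 942 and 1278 CPM at day 5 and 659 and 398 at day 10 (log2 fold change -1.07, SE 0.20, edgeR adjusted p = 0.00098). Both transporters were lower in both day 10 libraries. Among the enzymes, Eno2 was at 392 and 550.4 CPM at day 5 and 143 and 40.4 at day 10 (log2 fold change -2.36, SE 0.41, edgeR adjusted p = 0.00057). Pfkp was at 321 and 444 CPM at day 5 and 135 and 45.6 at day 10 (log2 fold change -2.08, SE 0.33, edgeR adjusted p = 0.00032). Other enzymes, with more counts, fell by less. Aldoa was at 2840.3 and 2836 CPM at day 5 and 2050.4 and 1362 at day 10. Gpi1 was at 2167 and 2175 CPM at day 5 and 1398 and 996 at day 10. Gapdh was at 1669 and 1573 CPM at day 5 and 1258 and 899 at day 10. In all of these genes day 10 replicate 2 was lower than replicate 1, and by more than 4-fold in Slc2a3, whose log2 fold change was -3.17 without replicate 2 and -5.55 without replicate 1. Without day 10 replicate 1 Eno2 stood at -3.55 and Pfkp at -3.08, and Eno2 at -1.74 without replicate 2. Ldha, Pgam1, Tpi1 and Pfkl, at log2 fold changes of -0.22, -0.20, -0.31 and -0.05, did not pass. In a fit of the 4 libraries alone, 9 of the 19 passed lower.

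The hypoxia response list, genes that HIF factors turn on at low oxygen and of which several also serve glycolysis, fell in part: 11 of 20 passed lower and none higher (median -0.57). Car9, a carbonic anhydrase, was at 25.8 and 40.9 CPM at day 5 and 1.90 and 0.292 at day 10 (log2 fold change -4.89, SE 0.45, edgeR adjusted p = 3.8e-06). P4ha1 and P4ha2 are prolyl hydroxylase subunits that modify collagen. P4ha1 was at 665 and 716 CPM at day 5 and 409.7 and 265 at day 10. P4ha2 was at 92.9 and 134 CPM at day 5 and 65.8 and 24.5 at day 10. Adm, a secreted vasodilator peptide, was at 65.02 and 83.2 CPM at day 5 and 39.9 and 10.3 at day 10 (log2 fold change -1.57, SE 0.40, edgeR adjusted p = 0.0081). Vegfa, at 635 and 862 CPM at day 5 and 704 and 436 at day 10, Egln1 and Pdk1 (-0.40 and -0.06) did not pass. This count rested on single libraries: 6 members passed lower without day 5 replicate 2 or in a fit of the 4 libraries alone, and 19 without day 10 replicate 1. Car9 stood at -6.59 without day 10 replicate 1 and -4.11 without replicate 2, Adm at -2.85 and -0.91, and P4ha2 did not pass without day 5 replicate 2 (edgeR adjusted p = 0.063). Adm did not pass in a fit of the 4 libraries alone (edgeR adjusted p = 0.074) or by DESeq2 (adjusted p = 0.058). At day 20 the mean of Slc2a3 was 2.46 CPM and that of Car9 0.124 CPM, below day 10 in both.

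ACGTG, the core of the site that HIF factors bind, was looked for on both strands of the same promoter windows. These letters also make up most of the E-box CACGTG, which other factors bind. They lay in 12 of 17 hypoxia genes (70.6%) and 12 of 18 glycolysis genes (66.7%), against 21.8% of all genes with a window. Some genes have several windows. Per window the shares were 58.3% of 24 for hypoxia genes, 48.3% of 29 for glycolysis genes and 19.6% over all windows. The hypoxia genes were listed because HIF factors turn them on, so their share is not a separate result. The median log2 fold change was -0.58 for the 12 glycolysis genes with ACGTG and -0.59 for those without, and -0.66 and -0.41 in the hypoxia list. A window is shown for 4 genes that fell and hold the letters: Slc2a1 and Pgk1 of glycolysis and Car9 and P4ha1 of the hypoxia list. The 250 bases before each start are given 5′ to 3′ in lower case, with the matches in capitals:
Car9, chr4:43506776-43507025, + strand: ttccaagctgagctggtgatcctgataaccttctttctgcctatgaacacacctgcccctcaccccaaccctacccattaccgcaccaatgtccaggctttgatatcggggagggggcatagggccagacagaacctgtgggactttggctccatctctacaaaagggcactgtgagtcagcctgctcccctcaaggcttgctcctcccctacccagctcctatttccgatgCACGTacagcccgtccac
P4ha1, chr10:59323046-59323295, + strand: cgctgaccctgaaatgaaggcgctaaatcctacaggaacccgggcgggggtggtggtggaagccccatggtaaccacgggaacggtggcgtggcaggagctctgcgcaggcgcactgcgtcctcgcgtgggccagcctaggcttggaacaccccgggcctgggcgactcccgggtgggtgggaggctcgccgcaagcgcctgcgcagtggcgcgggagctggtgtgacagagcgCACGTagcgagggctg
Slc2a1, chr4:119108495-119108744, + strand: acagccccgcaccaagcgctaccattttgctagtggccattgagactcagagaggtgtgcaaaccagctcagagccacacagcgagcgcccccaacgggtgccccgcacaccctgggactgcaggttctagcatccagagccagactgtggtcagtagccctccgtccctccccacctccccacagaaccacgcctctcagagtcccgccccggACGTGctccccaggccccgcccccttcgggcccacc
Pgk1, chrX:106186850-106187099, + strand: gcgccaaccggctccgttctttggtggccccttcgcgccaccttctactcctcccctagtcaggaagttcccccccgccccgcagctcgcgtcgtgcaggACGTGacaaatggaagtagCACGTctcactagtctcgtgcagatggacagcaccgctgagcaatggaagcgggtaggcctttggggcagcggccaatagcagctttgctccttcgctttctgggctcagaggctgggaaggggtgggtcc
The match begins 18, 16 and 36 bases before the start in Car9, P4ha1 and Slc2a1, and the 2 matches in Pgk1 begin 150 and 131 bases before it.

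Genes of mitosis fell without exception, while the share of DNA replication genes that fell was near that of all genes. All 23 mitosis genes passed lower, with log2 fold changes from -1.29 to -0.29 and a median of -0.73. Bub1b, a spindle checkpoint kinase, was at 262 and 227 CPM at day 5 and 99.6 and 99.7 at day 10 (log2 fold change -1.29, SE 0.08, edgeR adjusted p = 2.1e-07). Top2a, which untangles chromosomes, was at 1028 and 884 CPM at day 5 and 545 and 586 at day 10. The proliferation marker Mki67 was at 1007 and 902 CPM at day 5 and 666 and 759.9 at day 10 (log2 fold change -0.42, SE 0.10, edgeR adjusted p = 0.0042). In these 3 genes the days did not overlap, but with library totals alone as scaling Mki67 did not pass (edgeR adjusted p = 0.052). Of 29 replication genes, 9 fell and 4 rose (median -0.08), against 27.5% and 22.6% of all genes at a mean of at least 1 CPM. The licensing factor Cdt1 was at 72.96 and 60.2 CPM at day 5 and 35.4 and 31.98 at day 10 (log2 fold change -0.98, SE 0.11, edgeR adjusted p = 1.9e-05). Pcna, the sliding clamp, was at 120.5 and 115 CPM at day 5 and 109 and 114 at day 10. Mcm5 of the helicase was at 137 and 121 CPM at day 5 and 112 and 132 at day 10. Neither Pcna nor Mcm5 passed. Ccne2, a cyclin of S phase entry, was at 7.22 and 7.10 CPM at day 5 and 16.3 and 19.1 at day 10 (log2 fold change 1.30, SE 0.14, edgeR adjusted p = 1.3e-05). Ccnd2, a D-type cyclin, was at 695 and 752 CPM at day 5 and 1403 and 1457 at day 10 (log2 fold change 0.98, SE 0.09, edgeR adjusted p = 3.7e-06), the third largest gain in CPM. The E2F site TTTCGCGC or TTTGGCGC lay in 7 of 22 replication genes and in 1 of 19 mitosis genes, against 0.929% of all genes.

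Genes that p53 turns on were lower at day 10. Of 22 CDK inhibitors and p53 targets, 15 fell and 2 rose (median -0.71). Bbc3, which encodes the death protein PUMA, was at 53.1 and 48.9 CPM at day 5 and 7.45 and 6.31 at day 10 (log2 fold change -2.88, SE 0.13, edgeR adjusted p = 1.3e-08). Zmat3, an RNA-binding protein, was at 281 and 294 CPM at day 5 and 64.8 and 72.7 at day 10 (log2 fold change -2.06, SE 0.08, edgeR adjusted p = 4.6e-09). Ccng1, cyclin G1, was at 367 and 319 CPM at day 5 and 98.1 and 124 at day 10 (log2 fold change -1.62, SE 0.11, edgeR adjusted p = 2.4e-07). In each of these 3 genes the level at day 10 was far below that at day 5 in both libraries. Mdm2, which degrades p53, was at 138 and 124 CPM at day 5 and 67.4 and 68.8 at day 10. Cdkn1a, the CDK inhibitor p21, was at 299 and 359.6 CPM at day 5 and 250.5 and 172 at day 10 (log2 fold change -0.64, SE 0.14, edgeR adjusted p = 0.0032). The days did not overlap in any of the 5, nor in 75.2% of all genes at a mean of at least 1 CPM. At day 20 the mean was above that of day 10, at 204 CPM for Zmat3, 454 CPM for Ccng1 and 144 CPM for Mdm2. The 2 members that rose lie side by side in the genome and are linked to senescence. Cdkn2a was at 0 and 0.0816 CPM at day 5 and 2.42 and 9.19 at day 10, at least 46.3-fold higher when day 5 is set to 3 counts in each library. Its log2 fold change of 5.94 became 4.63 without day 10 replicate 2, 6.54 without day 10 replicate 1 and 6.72 without day 5 replicate 2. Cdkn2b was at 2.73 and 4.57 CPM at day 5 and 15.1 and 24.9 at day 10 (log2 fold change 2.43, SE 0.23, edgeR adjusted p = 5.4e-06). At day 20 their means were 47.1 and 57.1 CPM.

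Genes for protein synthesis fell as a block. Of 81 cytosolic ribosomal protein genes, 74 passed lower and 0 higher, with a median of -0.70, and their summed level went from 48435 and 47317 CPM to 31949 and 26805 CPM. These genes have many processed pseudogenes, and how the counting shared their reads makes single members uncertain. Among the elongation factors, Eef1a1 was at 7322 and 7050.1 CPM at day 5 and 4782 and 4193 at day 10. Eef2 was at 4723 and 4663 CPM at day 5 and 3376 and 2856 at day 10. The ribosomal scaffold Rack1 was at 2065 and 2043 CPM at day 5 and 1242 and 1009 at day 10. All 3 were lower in both day 10 libraries. Genes of the amino acid stress response driven by Atf4 also fell, 15 of 21, with 3 that rose. Asns, asparagine synthetase, was at 198 and 161 CPM at day 5 and 54.2 and 54.7 at day 10 (log2 fold change -1.72, SE 0.10, edgeR adjusted p = 8.1e-08). The stress factor Ddit3 was at 68.4 and 79.9 CPM at day 5 and 16.4 and 9.95 at day 10 (log2 fold change -2.49, SE 0.17, edgeR adjusted p = 3.0e-07). Both were lower in both day 10 libraries, as were the next 2. Trib3 was at 29.9 and 34.7 CPM at day 5 and 7.33 and 6.16 at day 10. Atf4 itself was at 279 and 267 CPM at day 5 and 146 and 166 at day 10. Of the 13 protein-coding genes of the mitochondrial genome, 7 had counts in these libraries, and 6 of those rose and 0 fell. The other 6 are listed at 0 in all 4 libraries, and how the authors' counting treated this genome is not given in the sources used here, so the levels of its genes are uncertain. Among all 11 mitochondrial genes at a mean of at least 1 CPM, ribosomal and transfer RNAs included, 7 rose and 1 fell. The cytochrome b gene mt-Cytb was at 1508 and 1300.0 CPM at day 5 and 1986 and 2700.2 at day 10 (log2 fold change 0.74, SE 0.12, edgeR adjusted p = 0.0004). The levels of mt-Nd1 were 1304 and 1103 CPM at day 5 and 1613 and 1997 at day 10. Those of mt-Co1 were 4167 and 3495 CPM at day 5 and 3183 and 3569 at day 10, and it did not pass. The cAMP element TGACGTCA lay in 0 of 19 amino acid stress genes and in 3 of 21 immediate early genes, against 2.03% of all genes, and the ETS site CCGGAAGT in 0 of 13 Ret-ERK feedback genes, against 4.31%. A ribosomal RNA row of the table held 1.04% and 1.49% of the counts at day 5 and 1.12% and 0.552% at day 10.

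Lipid genes fell in part. In all, 8 of 14 fatty acid synthesis genes fell and 0 rose. Acly, which makes cytosolic acetyl-CoA, was at 865 and 806 CPM at day 5 and 523 and 455 at day 10. The fatty acid synthase gene Fasn was at 1103 and 1025 CPM at day 5 and 761 and 756 at day 10. Of 24 cholesterol genes 12 fell and 1 rose. Of the enzymes of the pathway, Hmgcs1 was at 418 and 408 CPM at day 5 and 386 and 319 at day 10. Sqle was at 259 and 256 CPM at day 5 and 249 and 248 at day 10. Neither of the 2 passed. The sterol element of the LDL receptor promoter was looked for as well and lay in 0 of the 16 cholesterol genes with a window.

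**Figure D4:**
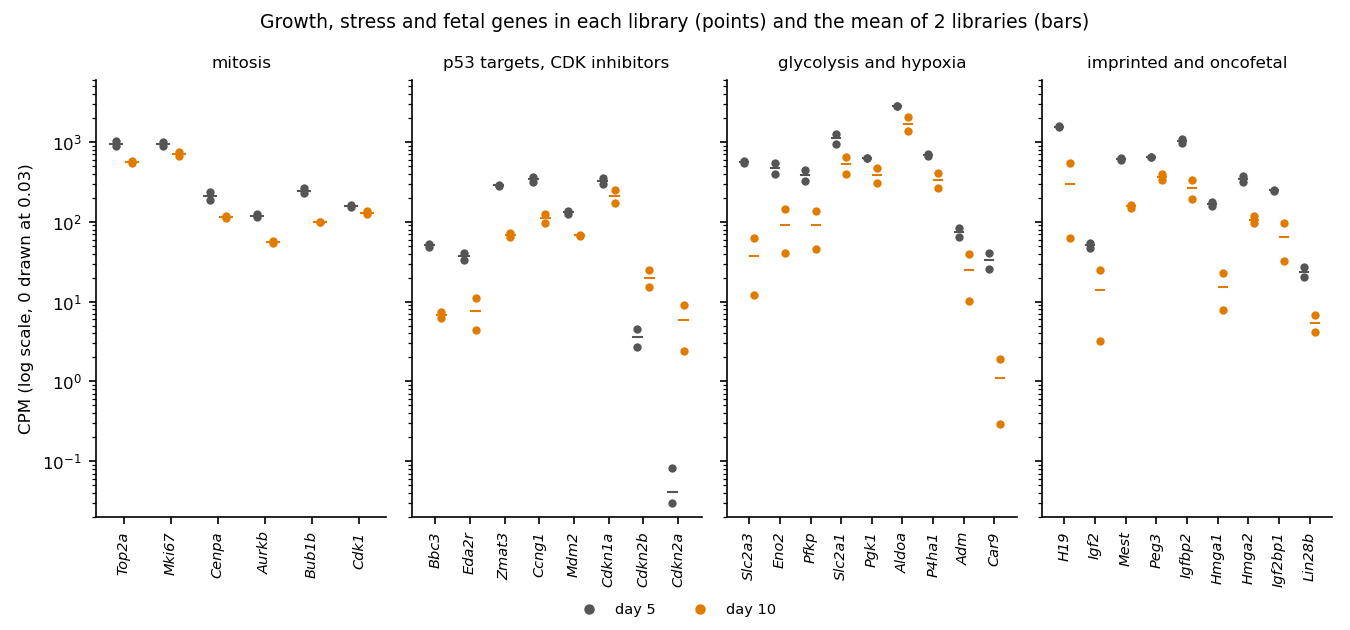
CPM on a log scale in each library (2 grey points for day 5, 2 orange points for day 10, bars at the mean of each day) for mitosis genes, p53 targets and CDK inhibitors, glycolysis and hypoxia genes, and imprinted and oncofetal genes; a count of 0 is drawn at 0.03 CPM. The days are separate in every gene shown, and the 2 day 10 libraries lie far apart in Slc2a3, H19 and Igf2.

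Imprinted genes, which are expressed from 1 parental allele and many of which are high in the fetus, mostly fell: 17 of 27, with 2 that rose and a median of -0.82. Mest was at 629 and 603 CPM at day 5 and 162 and 151 at day 10 (log2 fold change -1.98, SE 0.11, edgeR adjusted p = 8.1e-08). Peg3 was at 642 and 644 CPM at day 5 and 392 and 335 at day 10. The growth inhibitor Grb10 was at 1431 and 1342 CPM at day 5 and 1006 and 789 at day 10. The CDK inhibitor Cdkn1c was at 76.5 and 73.2 CPM at day 5 and 27.4 and 24.9 at day 10. The days did not overlap in any of these 4, nor in 75.2% of all genes at a mean of at least 1 CPM. H19, a long noncoding RNA at chr7:142575529-142578143 (mouse GRCm38, GENCODE M21), was at 1549.8 and 1582 CPM at day 5 and 542 and 62.9 at day 10 (log2 fold change -2.37, SE 0.74, edgeR adjusted p = 0.025). Igf2, the growth factor gene in the same cluster, was at 46.9 and 54.4 CPM at day 5 and 24.7 and 3.21 at day 10 (log2 fold change -1.87, SE 0.53, edgeR adjusted p = 0.015). Both had more than 4-fold between the 2 day 10 libraries. Without day 10 replicate 1 H19 and Igf2 had log2 fold changes of -4.65 and -3.97, and without replicate 2 of -1.55 and -1.05. H19 did not pass without day 5 replicate 1 or 2 (edgeR adjusted p = 0.062 and 0.06), nor Igf2 without day 5 replicate 2 (edgeR adjusted p = 0.062), and by DESeq2 the adjusted p was 0.27 and 0.091. Meg3 and Rian are noncoding RNAs of another imprinted cluster. Meg3 was at 38.1 and 38.6 CPM at day 5 and 15.5 and 3.79 at day 10. Rian was at 15.3 and 14.1 CPM at day 5 and 6.82 and 1.60 at day 10. Their log2 fold changes were -3.33 and -3.17 without day 10 replicate 1 and -1.32 and -1.12 without replicate 2, and Rian did not pass in a fit of the 4 libraries alone (edgeR adjusted p = 0.054). At day 20 the mean of H19 was 6.07 CPM and that of Igf2 0.507 CPM.

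Oncofetal genes, which are on in embryonic tissue and off in most adult cells, also fell more often than they rose. Of 18 genes of the IGF axis and this class, 11 fell and 3 rose. Hmga1, a chromatin protein of embryonic cells, was at 179 and 159 CPM at day 5 and 22.95 and 7.88 at day 10 (log2 fold change -3.46, SE 0.30, edgeR adjusted p = 2.3e-06). Its paralog Hmga2 was at 378 and 320.4 CPM at day 5 and 117 and 95.8 at day 10 (log2 fold change -1.71, SE 0.12, edgeR adjusted p = 5.3e-07). Lin28b, which blocks the maturation of let-7 miRNAs, was at 27.5 and 20.1 CPM at day 5 and 6.78 and 4.12 at day 10 (log2 fold change -2.12, SE 0.23, edgeR adjusted p = 1.3e-05). The RNA-binding proteins Igf2bp1, Igf2bp2 and Igf2bp3 fell, with log2 fold changes of -1.94, -0.93 and -1.05, and the IGF binder Igfbp2 was at 974 and 1085 CPM at day 5 and 338 and 191 at day 10. Without day 10 replicate 1 the log2 fold change was -4.42 for Hmga1 and -2.95 for Igf2bp1. At day 20 their means were 2.91 and 1.16 CPM. Igfbp7 rose, from 3.20 and 8.08 to 29.5 and 34.4 CPM (log2 fold change 2.48, SE 0.24, edgeR adjusted p = 6.0e-06, and 3.30 without day 5 replicate 2).

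The basement membrane list split evenly, 10 up and 10 down of 28. The ubiquitous collagen IV chains fell. Col4a1 was at 331 and 495 CPM at day 5 and 306 and 163 at day 10. Col4a2 was at 243 and 316 CPM at day 5 and 189 and 105 at day 10. The chains that mature renal basement membranes use rose. Col4a4 was at 0.342 and 0.408 CPM at day 5 and 10.3 and 17.5 at day 10 (log2 fold change 5.03, SE 0.32, edgeR adjusted p = 2.1e-07). Col4a3 was at 0.213 and 0.204 CPM at day 5 and 2.26 and 4.96 at day 10. Col4a5 was at 122 and 126 CPM at day 5 and 243 and 183 at day 10. Col4a1 did not pass without day 5 replicate 2 (edgeR adjusted p = 0.18), and Col4a3 stood at 3.11 on the log2 scale without day 10 replicate 2. Per length, Col4a2 still exceeded Col4a4 at day 10, at 23.5 and 13.1 RPKM against 0.925 and 1.56 RPKM. Laminin alpha5 (Lama5) fell, from 1366 and 1799.6 to 1077 and 798 CPM, and Nid1 rose while its paralog Nid2 fell (1.81 and -1.32). Cartilage matrix genes were present in these epithelial organoids, and of 19 tested, 9 rose and 3 fell. Col2a1, the collagen of cartilage, was at 831 and 1016 CPM at day 5 and 207 and 44.6 at day 10 (log2 fold change -2.88, SE 0.46, edgeR adjusted p = 0.00031), with a log2 fold change of -2.18 without day 10 replicate 2 and -4.38 without replicate 1. The genes of its partner collagen IX rose instead: Col9a1 was at 24.8 and 25.4 CPM at day 5 and 147 and 110.1 at day 10 (log2 fold change 2.35, SE 0.17, edgeR adjusted p = 5.0e-07), and Col9a2 and Col9a3 had log2 fold changes of 1.02 and 1.07. Of the collecting duct genes, the principal cell list had 5 members that rose and 4 that fell of 12.

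Of the called genes with a mean of at least 10 CPM and no overlap between the days, 110 were higher and 53 lower, and the 15 of each with the largest fold changes are named by the rule for genes. Without regard to calls, the days did not overlap in 64.1% of the genes tested, 68.9% of the 20917 genes described here and 75.2% of those at a mean of at least 1 CPM. Tchh, trichohyalin of hair follicles and a differentiation product of epithelia, was at 0.427 and 0.735 CPM at day 5 and 79.1 and 176 at day 10 (log2 fold change 7.65, SE 0.44, edgeR adjusted p = 1.0e-07) and lies at chr3:93442330-93449077. Gabrp, a GABA receptor subunit of epithelia, was at 0.0427 and 0.286 CPM at day 5 and 41.2 and 37.6 at day 10 (log2 fold change 7.48, SE 0.30, edgeR adjusted p = 6.7e-09). Hs3st1, which sulfates heparan sulfate, was at 0.0854 and 0.245 CPM at day 5 and 30.2 and 37.6 at day 10 (log2 fold change 7.26, SE 0.26, edgeR adjusted p = 3.8e-09). These 3 genes were all but absent at day 5. Edar, the ectodysplasin receptor of skin appendages, was at 2.31 and 1.80 CPM at day 5 and 70.5 and 104 at day 10. The most abundant of the 15 was Kif26b, a kinesin-related gene that kidney development requires, at 4.65 and 13.2 CPM at day 5 and 330.3 and 473 at day 10 (log2 fold change 5.48, SE 0.31, edgeR adjusted p = 8.1e-08). All 5 genes were higher in both day 10 libraries, which the rule that named them requires. Lcn2, the iron carrier lipocalin 2 that injured kidney tubules release, was at 3.24 and 7.47 CPM at day 5 and 122 and 187 at day 10 (log2 fold change 4.83, SE 0.30, edgeR adjusted p = 1.7e-07) and had a mean of 753 CPM at day 20. Postn, a matrix protein, was at 0.256 and 0.735 CPM at day 5 and 17.4 and 54.04 at day 10. Il1r1, the interleukin 1 receptor, was at 0.256 and 0.530 CPM at day 5 and 11.7 and 33.5 at day 10. Ebf1, a transcription factor, was at 0.256 and 0.612 CPM at day 5 and 21.4 and 26.8 at day 10. Without day 5 replicate 2 the log2 fold change was 8.64 for Gabrp (6.85 without replicate 1), 7.91 for Hs3st1, 6.41 for Kif26b, 6.27 for Ebf1, 6.85 for Postn and 5.55 for Lcn2. Without day 10 replicate 2 it was 6.93 for Tchh, 4.96 for Postn and 4.68 for Il1r1.

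Of the 15 genes that fell most at this level, several were described above (Slc2a3, Car9, Hmga1, Crabp2, Lhx1, Sall4, Bbc3, Col2a1, Bst2 and Pim1). Of the others, Paqr6, a membrane progestin receptor gene, was at 30.1 and 23.1 CPM at day 5 and 0.912 and 0.219 at day 10 (log2 fold change -5.45, SE 0.35, edgeR adjusted p = 2.3e-07). Stac2 was at 23.9 and 28.97 CPM at day 5 and 1.19 and 0.474 at day 10 (log2 fold change -4.92, SE 0.35, edgeR adjusted p = 4.2e-07). Apoe, the lipid carrier apolipoprotein E, was at 150.5 and 134 CPM at day 5 and 19.4 and 9.84 at day 10 (log2 fold change -3.29, SE 0.22, edgeR adjusted p = 2.4e-07). The protocadherin Pcdhgc3 and the atypical MAP kinase Mapk15 had log2 fold changes of -3.05 and -3.04. In each of these 15 genes day 10 replicate 2 was lower than replicate 1. Without replicate 1 the log2 fold change was -6.61 for Paqr6 (-4.80 without replicate 2), -5.65 for Stac2 and -3.70 for Pcdhgc3.

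By CPM rather than fold, the largest gains after mt-Cytb, Ret and Ccnd2 included that of Fth1, the ferritin heavy chain that stores iron. Fth1 was at 553 and 532 CPM at day 5 and 1069.9 and 1247 at day 10 (log2 fold change 1.10, SE 0.08, edgeR adjusted p = 7.2e-07). Cdh16, a kidney-specific cadherin, was at 208 and 337 CPM at day 5 and 963 and 671 at day 10 (log2 fold change 1.58, SE 0.19, edgeR adjusted p = 3.7e-05). The lipase gene Abhd2 was at 319 and 339 CPM at day 5 and 759.6 and 974 at day 10. The largest losses were in the ribosomal RNA row and the elongation factors, followed by the chaperone Hsp90ab1 and the desaturase Scd2. The ribosomal RNA row, CT010467.1, was at 10305 and 14922 CPM at day 5 and 10114 and 4939 at day 10 (log2 fold change -0.74, SE 0.26, edgeR adjusted p = 0.04). Day 10 replicate 1 was close to day 5 replicate 1 in this row. The row did not pass without day 10 replicate 2 (log2 fold change -0.33, edgeR adjusted p = 0.14), without day 5 replicate 2 (edgeR adjusted p = 0.29), in a fit of the 4 libraries alone (edgeR adjusted p = 0.15), with library totals alone (edgeR adjusted p = 0.082) or by DESeq2 (adjusted p = 0.11), and its log2 fold change was -1.36 without day 10 replicate 1. Hsp90ab1 was at 4959.7 and 4563 CPM at day 5 and 3293 and 3146 at day 10. The fatty acid desaturase Scd2 was at 5663 and 5528 CPM at day 5 and 4338 and 3894 at day 10. Fth1, Cdh16, Abhd2, Hsp90ab1 and Scd2 all passed the test, because only genes that passed were ranked here. The days did not overlap in any of them, nor in 75.2% of all genes at a mean of at least 1 CPM.

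**Figure D5:**
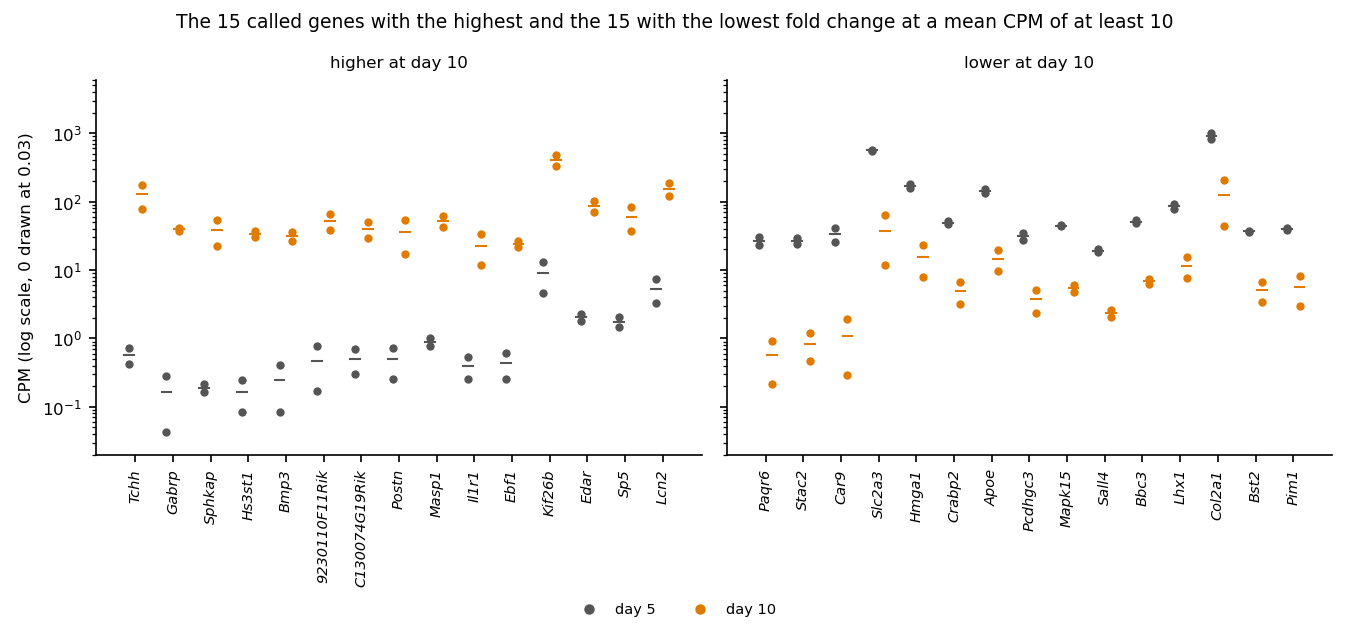
CPM on a log scale in each library (2 grey points for day 5, 2 orange points for day 10, bars at the mean of each day) for the 15 called genes with the highest and the 15 with the lowest fold change among genes with a mean of at least 10 CPM. Kif26b reaches the highest level among those that rose, and Slc2a3 and Col2a1 start from the highest levels among those that fell.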

How the data were processed

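Bulk RNA-seq libraries of UB organoids at day 5 and day 10 (2 each) were compared. The authors trimmed the reads, aligned them with STAR to mouse GRCm38.p6 and estimated gene counts with the expectation-maximization model of Partek Flow. The submitters' processing notes name FastQC 0.11.8, cutadapt 2.5, Trimmomatic 0.36 and edgeR 3.28.1. The labels and the methods name different extraction and library kits. The deposited counts are whole numbers per gene and were the basis of every test. The deposited RPKM values, scaled by the authors to gene length and library size, were used only to compare levels between genes. The deposited signal columns, counts the authors scaled to a common total, were not used in any result.

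The 24410 genes whose counts summed to 10 or more over all libraries were fitted with edgeR 4.0.16 (R 4.3.3; TMM factors, prior count 1, quasi-likelihood test, 2-sided, Benjamini-Hochberg over all genes tested), all 5 groups in one fit of group means, so that the groups share an estimate of the spread. The threshold for passing was an adjusted p of 0.05, and for a call 0.01 with more than 4-fold. DESeq2 1.42.0, other scaling and filters, a replicate block and leaving out each library were alternatives. On data simulated for this comparison (23137 genes), 56 of 67 genes changed 2-fold, 66 of 67 changed 4-fold and 66 of 66 changed 8-fold passed, with 5 false passes. Every simulated gene had the same spread between replicates (dispersion 0.0083), and genes with few counts at day 5 were not changed. These rates therefore do not cover such genes, or genes with a wide spread between replicates such as Tnfrsf1b and H19. Libraries held 22858971 to 24536676 counts. Floors of 3 counts cover counting error only.

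Genes were named by rule: the 15 highest and 15 lowest fold changes among called genes at a mean of at least 10 CPM with no overlap, the 10 largest gains and losses in CPM, members of the lists, and the 5 genes per day with the largest ratio over 4-fold between replicates. Examples within the lists were chosen with their values seen. The genes and lists were chosen with earlier results of these data known. Gene positions are from GENCODE M21 and promoter windows from RefSeq, both GRCm38. Some genes are not reported here.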

Additional observations from a re-analysis of the deposited data

How the results depend on the processing

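The 571 genes called higher became 369 with a filter at a mean of 1 CPM, 376 in a fit of the 4 libraries alone, 370 with a prior count of 5 and 1229 at a threshold of 2-fold, and the 261 called lower became 166, 163, 148 and 797. Without 1 library at a time, the genes called lower numbered 195 to 398, the highest without day 10 replicate 1 and the lowest without day 10 replicate 2. In a fit of the 4 libraries alone, 59 trunk signature genes fell instead of 104, 9 glycolysis genes instead of 15 and 6 hypoxia genes instead of 11. Without 1 library at a time the hypoxia genes that fell numbered 6 (without day 5 replicate 2) to 19 (without day 10 replicate 1). The cause was not tested. The replicate numbers were not taken to pair the samples. With 2 pairs, the difference between replicates 1 and 2 at day 5 correlated with that at day 10 at 0.102 over 13765 genes. Tnfrsf1b, Zfp990 and Rpl3-ps1 differed between the replicates in the same direction at both days, while H19, Igf2 and Cyp1b1 did not. Whether libraries of the same number share a source was not tested. A replicate block over all 10 libraries gave 3703 genes higher and 4027 lower that passed, and 563 and 263 called. In a fit of the 4 libraries alone, 2757 genes passed higher and 2873 lower. With the block in that fit, 2828 and 3062 passed, and 462 and 218 were called. DESeq2 gave 3011 and 3463 that passed, and 513 and 214 called. Of the 173 named genes that passed, 21 no longer passed under at least 1 alternative, 15 of them in a fit of the 4 libraries alone, 11 without day 5 replicate 2, 9 by DESeq2, 6 without day 5 replicate 1 and 4 with library totals alone, and 0 reversed direction. Among named genes that did not pass, some log2 fold changes changed sign. With library totals alone Col1a1 was at 0.042, Etv4 was at 0.012, Fgfr1 was at 0.054, Foxd1 was at 0.00620, Mcm5 was at 0.065, Pcna was at 0.069, Pdk1 was at 0.081, Pfkl was at 0.099, Sqle was at 0.092, Tcf7 was at 0.014. With the replicate block in a fit of the 4 libraries alone Col1a1 was at 0.14. With upper-quartile factors Pfkl was at 0.00908, Sqle was at 0.000658. Without 1 library at a time they ranged from -0.76 to 1.14 for Col1a1, -0.00104 to 0.31 for Etv5, -0.58 to 0.64 for Foxd1, -0.027 to 0.0405 for Gata3, -0.23 to 0.022 for Mcm5, -0.37 to 0.16 for Pdk1, -0.20 to 0.068 for Pfkl, -3.88 to 2.73 for Rpl3-ps1, -7.05 to 1.11 for Tbata, -0.38 to 0.049 for Tcf7, -2.33 to 3.276 for Tnfrsf1b, -2.55 to 0.96 for Zfp990. The cause was not tested. Depth limits genes near 3 counts, 0.109 to 0.128 CPM.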

Other observations

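Axon guidance genes changed without a common direction. Of 68 axon guidance genes, 21 rose and 14 fell (median log2 fold change 0.08). Among the semaphorins that rose, Sema3e went from 0.128 and 0.204 to 3.81 and 4.67 CPM (log2 fold change 4.28, SE 0.39, edgeR adjusted p = 3.3e-06), Sema3a from 15.7 and 14.04 to 40.4 and 31.4 CPM, and Sema5a from 116 and 125 to 259 and 332 CPM. Plxnc1, a semaphorin receptor, was at 24.7 and 27.3 CPM at day 5 and 4.92 and 3.54 at day 10 (log2 fold change -2.61, SE 0.18, edgeR adjusted p = 4.1e-07). Slit2, a repellent that limits where the UB forms, was at 476 and 449 CPM at day 5 and 328 and 241 at day 10 (log2 fold change -0.70, SE 0.11, edgeR adjusted p = 0.00025). Of 38 matrix proteases and their inhibitors 11 rose and 7 fell. Mmp2 was at 107 and 122 CPM at day 5 and 298 and 419 at day 10. The membrane-bound Mmp14 was at 102 and 132 CPM at day 5 and 175 and 278 at day 10, and both genes rose. The chemokine Cxcl12 was at 82.4 and 104 CPM at day 5 and 32.03 and 13.4 at day 10 (log2 fold change -2.04, SE 0.26, edgeR adjusted p = 4.8e-05, and -2.80 without day 10 replicate 1), so that both Cxcl12 and its receptor Cxcr4, at 90.3 and 101 CPM at day 5 and 60.97 and 41.3 at day 10, were lower at day 10. Amino acid transporter genes fell in 17 of 49 cases and rose in 11. The GABA and taurine transporter Slc6a13 was at 16.6 and 12.9 CPM at day 5 and 0.951 and 0.0729 at day 10 (log2 fold change -4.75, SE 0.44, edgeR adjusted p = 6.8e-06, and -6.85 without day 10 replicate 1 and -3.90 without replicate 2), and the cationic amino acid transporter Slc7a3 at 45.5 and 40.3 CPM at day 5 and 10.03 and 6.96 at day 10. Immediate early genes, which answer growth factors within minutes, rose in 10 of 27 and fell in 5. Arc was at 8.58 and 11.8 CPM at day 5 and 48.4 and 52.98 at day 10. Egr3 was at 0.128 and 0.286 CPM at day 5 and 2.10 and 7.44 at day 10. Jun was at 162 and 154 CPM at day 5 and 129.7 and 121 at day 10. Egr3 had a log2 fold change of 4.22, or 3.01 without day 10 replicate 2 and 4.81 without replicate 1, and Jun did not pass without day 5 replicate 1 (edgeR adjusted p = 0.086). At day 20 the means of Egr3 and Jun were 525 and 1218 CPM.

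The other lists split as follows, in members that rose and fell of those tested: Notch genes (3 up and 7 down of 20), claudins and tight junction genes (7 up and 8 down of 22), keratins (5 up and 1 down of 22), epithelial and mesenchymal state genes (5 up and 4 down of 21), urothelial and squamous genes (2 up and 5 down of 17). In the same terms they were Hox genes (4 up and 1 down of 33), interstitial matrix genes (6 up and 7 down of 22), cartilage matrix genes (9 up and 3 down of 19), chemokine genes (6 up and 4 down of 34), intercalated cell genes (1 up and 2 down of 15) and unfolded protein response genes (1 up and 6 down of 14). FGF ligands and receptors had 4 up and 5 down of 16. Most keratins and most Hox, chemokine, intercalated cell, and urothelial and squamous genes were below a mean of 1 CPM. Their members that did not pass are therefore not shown to be unchanged.

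Of the 230 gene families defined by the letters before the first digit of the symbol, with at least 8 members at a mean of at least 1 CPM, the Pcdhb family (clustered protocadherins) had the highest median log2 fold change, 1.31, and all of its 14 members rose. These genes are related in sequence and lie in 1 cluster, and whether and how reads were shared among them in counting is uncertain. Next came Mir (6 of 9 rose, median 0.84), Il (14 of 21 rose, 0.78), Galnt (8 of 12 rose, 0.76) and Pla (4 of 9 rose, 0.75). The Mir rows are not measures of mature miRNAs. The lowest medians belonged to Rpl (42 of 51 fell, -0.70), Rps (35 of 49 fell, -0.64), Kif (22 of 35 fell, -0.58), Pip (6 of 8 fell, -0.48) and Snhg, host genes of small nucleolar RNAs (9 of 14 fell, -0.47). Within the Kif family Kif26b had the highest log2 fold change, 5.48.

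Among genes at a mean of at least 10 CPM, the 2 libraries of a day differed by more than 4-fold in 5 genes at day 5 and in 9 at day 10. Tnfrsf1b, a TNF receptor at chr4:145213463-145246870, was at 2.05 and 19.3 CPM at day 5 and 2.10 and 38.4 at day 10, and Zfp990, a zinc finger gene at chr4:145510759-145539188, at 50.1 and 8.57 CPM at day 5 and 28.5 and 5.03 at day 10. The pseudogene Rpl3-ps1, whose reads may be shared with its parent gene, was at 19.9 and 0.857 CPM at day 5 and 11.5 and 0.656 at day 10. In these 3 genes the libraries numbered 1 differed from those numbered 2 in the same direction at both days. Tbata was at 24.5 and 0.0408 CPM at day 5 and 0.277 and 0.0365 at day 10. Cyp1b1, an enzyme that responds to aryl hydrocarbons, was at 1.28 and 0.530 CPM at day 5 and 2.81 and 37.6 at day 10 (log2 fold change 4.42, SE 0.93, edgeR adjusted p = 0.0024), and its log2 fold change was 1.57 without day 10 replicate 2, 5.29 without day 10 replicate 1 and 5.12 without day 5 replicate 1. Tnfrsf1b, Zfp990, Rpl3-ps1 and Tbata did not pass the test between the days.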
